A study of Mus musculus with 12 samples.

Results

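The genes of 10 ligands of the tumor necrosis factor (TNF) superfamily were followed in cardiac macrophages: Tnf, Tnfsf4, Tnfsf8, Tnfsf9, Tnfsf10, Tnfsf12, Tnfsf13, Tnfsf13b, Tnfsf14 and Tnfsf18. They were taken by gene symbol from the 55487 genes of the deposited count table, and the list was chosen with earlier results of these data known. All 10 passed the filter on low counts. The study asked how resident and recruited macrophages respond to ischemia/reperfusion (I/R) injury, in which the left anterior descending artery is tied off for a while and then reopened. Bone marrow (BM) chimeras were made by 4 injections of polyI:C, an interferon inducer, into adult CD45.2; Mx1Cre Myb flox/flox mice, in which loss of Myb empties the host marrow, followed by BM of C57BL/6 CD45.1 donors. All hearts were taken 2 days after I/R injury, and about 1000 macrophages per sample were sorted as live CD45+ lin- CD11b+ F4/80+ CD64+ cells. In the study's flow cytometry the lin gate held CD11c, a dendritic cell antigen, and antigens of T cells, NK cells and red cells. The 4 groups, with 3 libraries each, were CD45.2 (resident) and CD45.1 (recruited) macrophages of the infarct zone (IZ) and CD45.2 and CD45.1 macrophages of the remote zone (RZ) of injured hearts. CD45.2 cells carry the Mx1Cre and floxed Myb alleles and come from hosts exposed to polyI:C, CD45.1 cells do not carry these alleles, and the effect of origin cannot be told apart from these differences. The stated chimerism of above 90% at 4 weeks leaves room for CD45.2 cells that were recruited from remaining host marrow. No heart without injury was analysed here.

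Ligands of the TNF superfamily are mostly made as membrane proteins that assemble in threes, and several are cut from the surface by proteases such as ADAM17 or furin. They bind receptors of the TNF receptor superfamily, which pass the signal through TRAF adaptors to NF-kB or through death domains to caspases. Macrophages are a main source of TNF, and after cardiac ischemia TNF is known both as a driver of inflammation and as a depressant of muscle contraction. Other members of the family act mainly between immune cells, as co-stimulators of T cells (Tnfsf4, Tnfsf8, Tnfsf9, Tnfsf14, Tnfsf18) or as survival factors of B cells (Tnfsf13, Tnfsf13b).

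Total counts ranged from 33253340 to 63435529 per library. The genes of the sort markers were present in all 12 libraries, with a summed level of the 8 macrophage genes of 17380 to 23760 CPM (counts scaled to library size after TMM normalisation). Libraries S104 to S107, 1 of each group, stood apart on the second principal component, which held 15% of the variance, and in S108 to S111 Y-linked RNA was above Xist. No label ties libraries to animals, so the p-values below measure the spread between libraries. Without S104 to S107 all 6 ligand genes called between the populations in each zone remained past the threshold.

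Between the populations, 6 of the 10 ligand genes passed the threshold (adjusted p under 0.05, edgeR's quasi-likelihood test) in each zone, and they were the same 6. Tnf, Tnfsf9, Tnfsf13b and Tnfsf18 were higher in resident macrophages, whereas Tnfsf14 and Tnfsf4 were lower. Tnfsf4 and Tnfsf18 had few counts. The Tnfsf4 call was lost in 13 of 21 alternative fits in the RZ and in 4 of 20 in the IZ. The Tnfsf18 call was lost in 1 of 21 in the RZ. In the IZ the 4 higher genes stood against 12% of all 18773 genes tested that were higher, and the 2 lower genes against 7.56% that were lower. In the RZ the same 4 and 2 genes stood against 16.2% higher and 15.8% lower. The median log2 fold change (CD45.2 over CD45.1) of the 10 genes was 0.35 in the IZ and 0.54 in the RZ, and over all genes tested it was 0.04 in each zone. Markers of other cells also moved with the population. Heart muscle genes summed to 45.6 to 110 CPM in resident against 19.5 to 27.4 CPM in recruited macrophages of the IZ, and 7 of the 11 tested were higher. In the RZ they summed to 57.0 to 132 CPM in resident against 18.2 to 27.4 CPM in recruited macrophages, and 9 of 11 were higher. Of 10 fibroblast markers, 9 had a positive log2 fold change in each zone (median 2.23 in the IZ and 2.53 in the RZ). Only Gsn of these was called, as lower, in both zones. Of 10 endothelial markers, 10 were positive in the IZ (median 1.46) and 9 in the RZ (median 1.24), and none was called. The part of these cells in the ligand results was not tested. In bulk samples, fewer cells that carry a transcript and less of it per cell cannot be told apart.

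**Figure D1:**
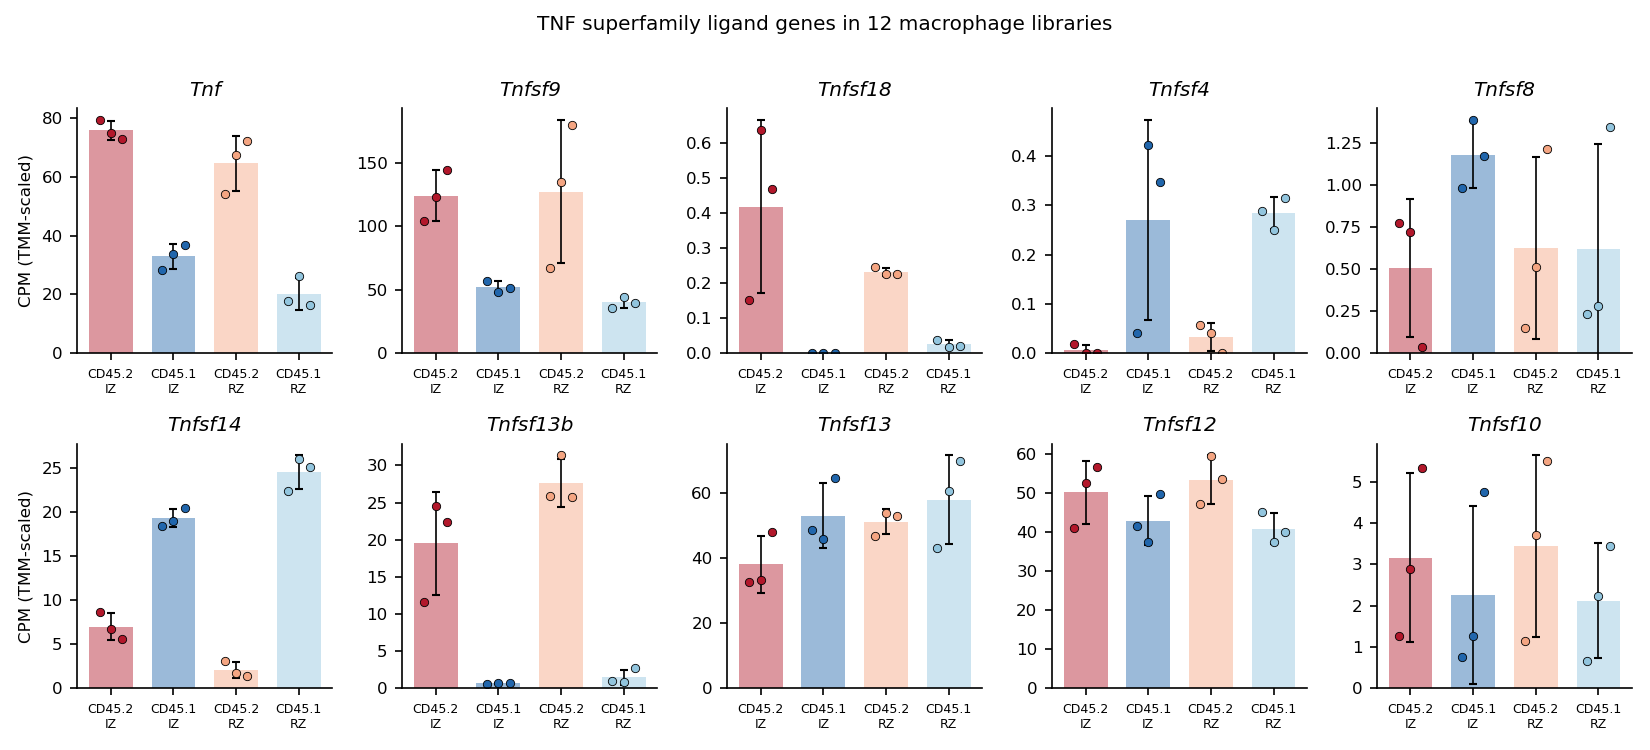
Levels of the 10 TNF superfamily ligand genes in CPM (TMM-scaled) on an axis of its own for each gene, by group. Points are the 3 libraries of a group, bars are their means and whiskers 1 SD. Tnf, Tnfsf9, Tnfsf13b and Tnfsf18 are higher in both CD45.2 groups and Tnfsf14 in both CD45.1 groups, while Tnfsf10 and Tnfsf12 overlap between the populations in the IZ.

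Promoter windows of the called genes are shown because these genes moved together with the population, Tnf, Tnfsf18 and Tnfsf13b upward and Tnfsf14 downward in CD45.2 macrophages. RefSeq (GRCm38.p6) held a window for 7 of the 10 genes and for 4 of the 6 called, reaching from 250 bases before to 50 bases after the start site (for Tnfsf13b, of 2 windows the one nearest the gene's start). Both strands were searched for the kB consensus, for TATAAA as the TATA box type, for TGANTCA as the AP-1 type site, for the interferon-stimulated type motif and for GAGGAA as the PU.1 and ETS type, and capitals mark every match. Of 32851 windows of all genes, 4.51% held the kB consensus, 13.6% the TATA box type, 7.81% the AP-1 type, 3.44% the interferon-stimulated type and 28.3% the PU.1 and ETS type.
Tnf promoter (chr17:35201958-35202257, minus strand): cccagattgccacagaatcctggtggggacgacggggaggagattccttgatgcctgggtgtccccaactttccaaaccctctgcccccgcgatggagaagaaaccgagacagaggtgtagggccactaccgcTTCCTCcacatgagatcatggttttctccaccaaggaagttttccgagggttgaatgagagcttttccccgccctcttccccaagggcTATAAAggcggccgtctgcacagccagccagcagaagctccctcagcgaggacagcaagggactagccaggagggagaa
Tnfsf18 promoter (chr1:161494407-161494706, plus strand): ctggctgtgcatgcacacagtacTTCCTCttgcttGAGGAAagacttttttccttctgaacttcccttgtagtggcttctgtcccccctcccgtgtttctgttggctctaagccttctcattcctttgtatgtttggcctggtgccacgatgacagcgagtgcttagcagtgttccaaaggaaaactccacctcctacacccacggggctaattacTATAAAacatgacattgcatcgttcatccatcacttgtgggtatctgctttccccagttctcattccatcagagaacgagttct
Tnfsf13b promoter (chr8:10006217-10006516, plus strand): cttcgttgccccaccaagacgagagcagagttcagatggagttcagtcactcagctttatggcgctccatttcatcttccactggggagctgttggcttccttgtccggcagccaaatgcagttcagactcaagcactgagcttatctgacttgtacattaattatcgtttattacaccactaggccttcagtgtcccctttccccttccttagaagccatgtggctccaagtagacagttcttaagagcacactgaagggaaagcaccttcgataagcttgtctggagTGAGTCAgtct
Tnfsf14 promoter (chr17:57194132-57194431, minus strand): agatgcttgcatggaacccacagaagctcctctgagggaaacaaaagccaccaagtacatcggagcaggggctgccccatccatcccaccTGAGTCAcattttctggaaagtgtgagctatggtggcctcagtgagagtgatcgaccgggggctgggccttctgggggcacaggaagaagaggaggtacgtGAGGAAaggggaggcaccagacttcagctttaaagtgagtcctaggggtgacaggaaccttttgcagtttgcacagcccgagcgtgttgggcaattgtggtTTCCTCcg
TATAAA lay at -29 to -24 from the start site in Tnf and at -34 to -29 in Tnfsf18. TGANTCA was matched at 39 to 45 in Tnfsf13b and at -160 to -154 in Tnfsf14, which moved in opposite directions. It was also matched at -133 to -127 in the window of Tnfsf13, which was not called. The windows of Tnfsf8 and Tnfsf10, also not called, held no match of any motif searched. GAGGAA or its reverse complement was matched once in Tnf, and 2 times each in Tnfsf14 and Tnfsf18. The kB consensus and the interferon-stimulated type motif had no match in the 4 windows, which says only that these letters are not there. No match overlapped a match of another motif.

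Tnf encodes the founding cytokine of the family, which is made as a membrane protein and shed by ADAM17. Its gene, ENSMUSG00000024401, spans 35199381 to 35202007 of chromosome 17 (GRCm38) on the minus strand. In the IZ its level was 79.3, 75.0 and 73.0 CPM in CD45.2 macrophages, against 28.4, 33.6 and 36.9 CPM in CD45.1 macrophages. In the RZ it was 54.1, 67.6 and 72.1 CPM in CD45.2 macrophages, against 17.6, 26.4 and 16.5 CPM in CD45.1 macrophages. Every resident library was above every recruited library, in either zone and across the zones. Tnf was 2.30-fold higher in the IZ (log2 fold change 1.20, SE 0.18, adjusted p = 0.000813) and 3.20-fold higher in the RZ (1.68, SE 0.182, adjusted p = 4.67e-05; edgeR). The RZ libraries of CD45.1 macrophages held the lowest Tnf levels of the series. Over the 12 libraries the log2 level of Tnf ran most closely with those of Tpst1, a tyrosylprotein sulfotransferase (Pearson's r = 0.94), Pdgfb, a platelet-derived growth factor chain (0.94), and Ktn1, the kinesin receptor kinectin (0.94). These correlations, and those below, describe 12 points that fall into 4 groups, and carry no test.

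Tnfsf9 encodes 4-1BBL, the ligand of the T cell co-stimulatory receptor Tnfrsf9. The gene, ENSMUSG00000035678, spans 57105325 to 57107757 of chromosome 17 on the plus strand. In the IZ it was at 104.3, 122.7 and 144.4 CPM in CD45.2 macrophages, against 56.8, 47.9 and 51.2 CPM in CD45.1 macrophages. In the RZ it was at 67.4, 135 and 179 CPM in CD45.2 macrophages, against 35.9, 44.5 and 39.6 CPM in CD45.1 macrophages. The groups did not overlap in either zone, and the resident RZ libraries spread widely, with S106 the lowest of them. Tnfsf9 was 2.38-fold higher in the IZ (log2 fold change 1.25, SE 0.273, adjusted p = 0.00812) and 3.18-fold higher in the RZ (1.67, SE 0.276, adjusted p = 0.00091; edgeR). Its pattern was most like those of Gadd45g (r = 0.975), a growth arrest gene, Nfkbiz (0.972), which encodes a nuclear protein of the IkB family, and Gm8818 (0.958). Of its 1290 exon bases, 192 (14.9%) overlap the long noncoding gene Gm11110 on the other strand, for which reads of that stretch were counted too. Gm11110 itself was 1.02 higher on the log2 scale in the IZ (adjusted p = 0.0178) and 1.35 higher in the RZ (adjusted p = 0.00244; edgeR), and the 2 genes cannot be told apart there because strand was not kept.

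Tnfsf13b encodes BAFF, the B cell activating factor, which keeps mature B cells alive. Its gene, ENSMUSG00000031497, spans 10006467 to 10039072 of chromosome 8 on the plus strand. It showed the largest difference between the populations among the ligand genes with counts in all 12 libraries. In the IZ it was at 11.6, 24.5 and 22.4 CPM in CD45.2 macrophages, against 0.563, 0.705 and 0.693 CPM in CD45.1 macrophages. In the RZ it was at 25.9, 31.3 and 25.7 CPM in CD45.2 macrophages, against 0.959, 0.883 and 2.69 CPM in CD45.1 macrophages. The lowest resident library, S107 of the IZ, was still above the highest recruited library, S112 of the RZ. Tnfsf13b was 29.7-fold higher in the IZ (log2 fold change 4.89, SE 0.455, adjusted p = 3.04e-05) and 18.4-fold higher in the RZ (4.20, SE 0.43, adjusted p = 3.02e-05; edgeR). Over the 12 libraries its log2 level ran with those of Agmo, which encodes alkylglycerol monooxygenase (r = 0.996), Slco2b1, an organic anion transporter (0.993), and B3galnt1, a glycosyltransferase (0.993).

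B cell markers also moved with the population. Their sum was 136.9 to 290 CPM in resident against 23.4 to 41.0 CPM in recruited macrophages of the IZ, and 309 to 658 CPM in resident against 51.6 to 82.8 CPM in recruited macrophages of the RZ. Of the 8 tested, Ighm, Ighd and Cd79b were higher in both zones, and all 8 had a positive log2 fold change in each zone (median 2.87 in the IZ and 2.41 in the RZ). Most of the sum was Ighm, whereas Pax5 reached at most 0.339 CPM, with 7 of 12 libraries at 0 counts. S110, the library with the highest Tnfsf13b level, also held the highest levels of Ighm (639.9 CPM) and Cd79b (11.7 CPM), while Ms4a1 and Pax5 were at 0 there. Dendritic cell markers summed to 15.5 to 31.0 CPM in resident against 4.47 to 12 CPM in recruited macrophages of the IZ, and 24.6 to 41.0 CPM in resident against 5.73 to 18.4 CPM in recruited macrophages of the RZ. Of these 8 genes, Zbtb46, Fscn1 and Siglech were higher in both zones and Flt3 was lower in the RZ, and CD11c was part of the lin gate. The part of B cells and dendritic cells in the Tnfsf13b difference was not tested.

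Tnfsf14 encodes LIGHT, which binds Tnfrsf14 (HVEM) on lymphocytes and the lymphotoxin beta receptor Ltbr. The gene, ENSMUSG00000005824, spans 57189492 to 57194177 of chromosome 17 on the minus strand. It was the more abundant of the ligand genes called lower in resident macrophages. In the IZ it was at 8.68, 6.75 and 5.63 CPM in CD45.2 macrophages, against 18.5, 19.0 and 20.5 CPM in CD45.1 macrophages. In the RZ it was at 3.12, 1.77 and 1.42 CPM in CD45.2 macrophages, against 22.4, 26.1 and 25.2 CPM in CD45.1 macrophages. The 4 groups did not overlap at all. The log2 fold change was -1.46 in the IZ (SE 0.252, adjusted p = 0.00203) and -3.55 in the RZ (SE 0.275, adjusted p = 4.33e-06; edgeR). Its pattern was most like those of Arhgap24 (r = 0.988), Gm5150 (0.987) and Tmem154 (0.987).

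Neutrophil markers, which include the receptor Csf3r and the granule proteases Mmp8 and Mmp9, mostly moved the same way as Tnfsf14. They summed to 143 to 316 CPM in resident against 268 to 470 CPM in recruited macrophages of the IZ. In the RZ they summed to 174 to 211 CPM in resident against 375.5 to 465 CPM in recruited macrophages. Most of the sum was Csf3r, Mmp8 and Mmp9 in each group. Mmp9 overlapped between the populations in the IZ, with 40.47 to 223.3 CPM in resident against 35.64 to 232.7 CPM in recruited macrophages. Of the 12 markers summed, Camp, Ngp and Ltf reached at most 0.1833 CPM in any library. Of the 8 tested, Mmp8 and Lcn2 were lower in the IZ and Mmp8, Lcn2 and Csf3r in the RZ, where all 8 log2 fold changes were negative (median -2.12, against -0.71 in the IZ). Ly6g, which defines neutrophils, was at 0 in all 6 CD45.2 libraries and in 3 of the 6 CD45.1 libraries, and at most 0.0805 CPM (10 counts in all) in the other 3. Their part in the Tnfsf14 difference was not tested.

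Tnfsf18 and Tnfsf4 are neighbours on chromosome 1, with 76.2 kb between them, and both were rare. Tnfsf18 encodes GITRL, the ligand of the T cell receptor Tnfrsf18. Its gene, ENSMUSG00000066755, spans 161494655 to 161505290 of chromosome 1 on the plus strand. In the IZ it had 57 counts in the CD45.2 libraries (0.151, 0.636 and 0.468 CPM) and 0 in the CD45.1 libraries (adjusted p = 0.00147, edgeR). Against a floor of 3 counts over the group Tnfsf18 was 18.9-fold higher. The 95% counting interval of the ratio, which covers counting error only, began at 14.9. In the RZ it had 37 counts in the CD45.2 libraries (0.246, 0.226 and 0.225 CPM) and 4 in the CD45.1 libraries (0.0383, 0.0167 and 0.021 CPM). The groups did not overlap, and the log2 fold change was 3.09 (SE 0.777, adjusted p = 0.0142, edgeR). The RZ call was lost without S108 (adjusted p = 0.0648). Arap3 (r = 0.954), Syt11 (0.953) and Synpo (0.951) had the most similar patterns.

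Tnfsf4 encodes OX40L, the ligand of the T cell receptor Tnfrsf4. The gene, ENSMUSG00000026700, spans 161395409 to 161418410 of chromosome 1 on the plus strand. In the IZ it had 1 count in the CD45.2 libraries and 38 in the CD45.1 libraries (0.0402, 0.423 and 0.347 CPM). Relative to depth it was 38.2 times higher in CD45.1 than in CD45.2 macrophages of the IZ, with a 95% counting interval of 6.45 to 1550 that covers counting error only (adjusted p = 0.0195, edgeR). In the RZ it had 5 counts in the CD45.2 libraries (0.0568, 0.0411 and 0 CPM) and 45 in the CD45.1 libraries (0.288, 0.25 and 0.315 CPM), and the fitted log2 fold change was -3.06 (SE 1.03, adjusted p = 0.0418, edgeR). The groups did not overlap in either zone. The RZ call was lost in 13 of 21 alternatives (adjusted p between 0.0308 and 0.114 over all 21) and the IZ call in 4 of 20, each of which left out 1 of S109, S111, S113 and S115 (up to 0.0837). Among the most similar patterns were those of Cpne1 (r = 0.934) and Gm28036 (0.919). The neighbours on chromosome 1 thus had opposite calls in both zones.

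**Figure D2:**
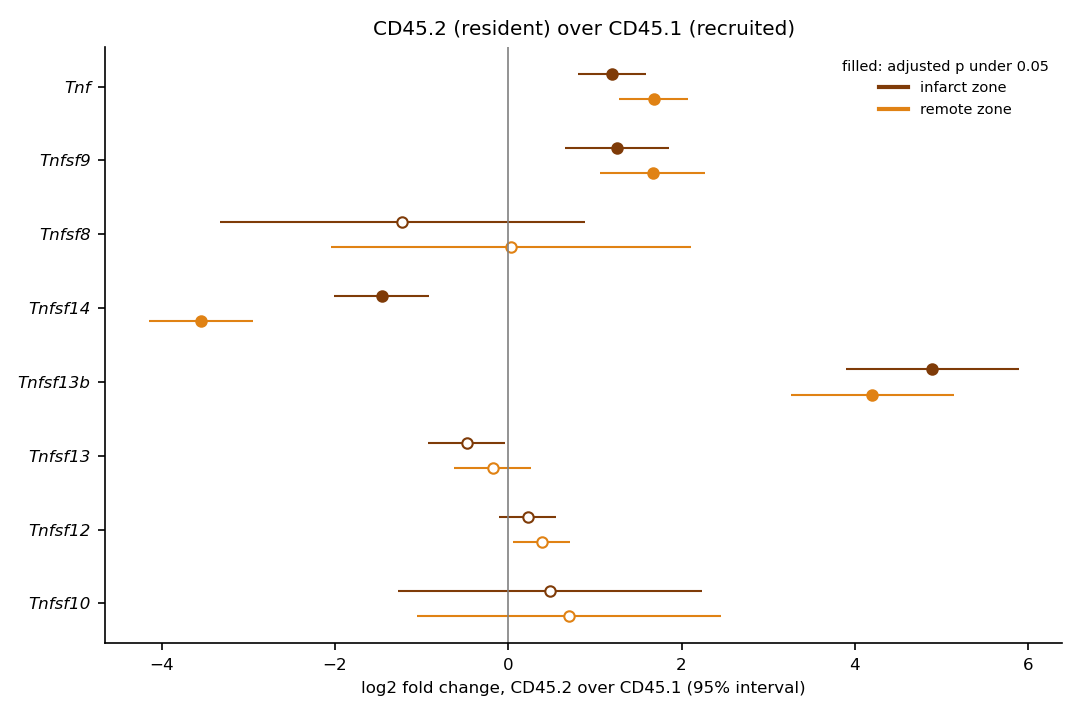
Log2 fold changes of CD45.2 over CD45.1 with 95% intervals for 8 of the ligand genes, in the IZ and in the RZ, from edgeR. Tnfsf13b lies farthest to the right and Tnfsf14 to the left, with -1.46 in the IZ and -3.55 in the RZ. Tnfsf4 and Tnfsf18 are left out because 1 of their groups held 0 or 1 counts.

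The other 4 ligand genes did not pass the threshold between the populations in either zone. Tnfsf12 encodes TWEAK, the ligand of Tnfrsf12a (Fn14). Its gene, ENSMUSG00000097328, spans 69686250 to 69695849 of chromosome 11 on the minus strand. It was at 41.1, 52.6 and 56.8 CPM in resident against 41.7, 37.4 and 49.8 CPM in recruited macrophages of the IZ, and averaged 53.4 ± 6.22 CPM in resident against 40.9 ± 3.94 CPM in recruited macrophages of the RZ (SD, n = 3 each). The groups overlapped in the IZ only. The log2 fold change was 0.22 in the IZ (95% interval -0.11 to 0.56, adjusted p = 0.328) and 0.39 in the RZ (0.05 to 0.72, adjusted p = 0.0722; edgeR). The RZ difference passed the threshold in 3 of 22 alternatives, with 0.54 without S104 to S107 (adjusted p = 0.024), and over all 22 the adjusted p was 0.024 to 0.205.

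Tnfsf13 encodes APRIL, which supports plasma cells and shares receptors with BAFF. The gene, ENSMUSG00000089669, spans 69682846 to 69685784 of chromosome 11 on the minus strand. It was at 32.7, 33.4 and 48.1 CPM in resident against 48.5, 46.0 and 64.5 CPM in recruited macrophages of the IZ, and at 46.7, 54.0 and 52.9 CPM in resident against 43.1, 60.6 and 69.9 CPM in recruited macrophages of the RZ. The groups overlapped in both zones. The log2 fold change was -0.48 in the IZ (95% interval -0.92 to -0.03, adjusted p = 0.124) and -0.18 in the RZ (-0.62 to 0.27, adjusted p = 0.531; edgeR). The IZ difference was called lower in 2 of 22 alternatives, with the side of the second component as a covariate (-0.48, adjusted p = 0.0412) and with sex and side together (-0.48, adjusted p = 0.0164), and over all 22 its adjusted p was 0.0164 to 0.305. Tnfsf12 and Tnfsf13 lie 0.5 kb apart on chromosome 11 and share exons with their read-through gene Tnfsfm13, over 731 of 1515 bases (48.3%) in Tnfsf12 and 983 of 1637 bases (60.0%) in Tnfsf13. Reads in a shared exon went to each gene there, so their levels are not independent and cannot be split among the 3 genes. Tnfsf12 ran most closely with Stap1 (r = 0.927), Pou2f2 (0.911) and Gnaq (0.911), and Tnfsf13 with Cd300a (0.964), St3gal4 (0.941) and Rps6kb2 (0.921).

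Tnfsf10 encodes TRAIL, an interferon-inducible ligand that triggers cell death through Tnfrsf10b. Its gene, ENSMUSG00000039304, spans 27317028 to 27342427 of chromosome 3 on the plus strand. It was at 1.26, 2.88 and 5.33 CPM in resident against 0.764, 1.27 and 4.74 CPM in recruited macrophages of the IZ, and at 1.14, 3.70 and 5.49 CPM in resident against 0.671, 2.23 and 3.45 CPM in recruited macrophages of the RZ. The populations overlapped in both zones, and the levels followed the set of libraries: S104 to S107 held 0.671 to 1.26 CPM and the other 8 libraries 1.27 to 5.49 CPM. The log2 fold change was 0.48 in the IZ (95% interval -1.27 to 2.24, adjusted p = 0.707) and 0.70 in the RZ (-1.05 to 2.46, adjusted p = 0.53; edgeR). Its pattern was most like those of the mitochondrial genes mt-Co2 (r = 0.949) and mt-Co1 (0.93) and of Tspan13 (0.936). Endothelial markers were also low in S106 and S107 (10.9 and 25.1 CPM in sum), against 134.9 to 232 CPM in the other CD45.2 libraries, and their part in the level of Tnfsf10 was not tested.

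Tnfsf8 encodes CD30L, the ligand of Tnfrsf8. The gene, ENSMUSG00000028362, spans 63831308 to 63861347 of chromosome 4 on the minus strand. It was at 0.772, 0.719 and 0.036 CPM in resident against 0.986, 1.39 and 1.18 CPM in recruited macrophages of the IZ, and at 0.151, 0.514 and 1.21 CPM in resident against 0.23, 0.283 and 1.34 CPM in recruited macrophages of the RZ. The populations overlapped in the RZ and not in the IZ. Neither difference passed the threshold (IZ log2 fold change -1.22, 95% interval -3.33 to 0.88, adjusted p = 0.402; RZ 0.03, -2.05 to 2.10, adjusted p = 0.985; edgeR), and intervals this wide do not show that the populations were alike. Its most similar patterns were those of Ehmt1 (r = 0.865), Ranbp9 (0.78) and Tsc22d2 (0.771).

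Between the zones, the ligand genes differed less. In resident macrophages Tnfsf14 was higher in the IZ than in the RZ, and it was the only ligand gene called, against 1.46% of all genes tested that were higher and 0.293% that were lower. In recruited macrophages no ligand gene and 0% of all genes passed in edgeR, although 1486 genes (7.92%) had an unadjusted p under 0.05, and DESeq2 called 190 genes and limma-voom 0. DESeq2 called 1 ligand gene there, Tnf, which was higher in the IZ (adjusted p = 0.0296). The median log2 fold change (IZ over RZ) of the 10 genes was -0.11 in resident and -0.0035 in recruited macrophages, against 0.017 and -0.0021 over all genes in these populations.

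In CD45.2 macrophages Tnfsf14 averaged 7.02 ± 1.55 CPM in the IZ and 2.10 ± 0.899 CPM in the RZ (SD, n = 3 each). It was 3.34-fold higher in the IZ (log2 fold change 1.74, SE 0.261, adjusted p = 0.00625, edgeR), and the libraries of the zones did not overlap. The call was lost when the fit was limited to the 6 CD45.2 libraries (adjusted p = 0.117), which leaves fewer libraries to estimate the spread. In CD45.1 macrophages Tnfsf14 averaged 19.3 ± 1.05 CPM in the IZ and 24.6 ± 1.92 CPM in the RZ (SD, n = 3 each), again with no overlap but with the IZ lower (log2 fold change -0.35, 95% interval -0.88 to 0.19, adjusted p = 0.816, edgeR). Neutrophil markers in CD45.2 macrophages summed to 143 to 316 CPM in the IZ against 174 to 211 CPM in the RZ, and 1 of 8, Mmp8, was higher in the IZ. The log2 fold change was positive for 7 of the 8, with a median of 1.01, against 0.017 over all genes. Their part in the Tnfsf14 difference between zones was not tested.

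The zone effect of Tnfsf14 in CD45.2 minus that in CD45.1 macrophages was 2.08 on the log2 scale (SE 0.357, 95% interval 1.30 to 2.87), with an adjusted p of 0.0842 by edgeR, so the difference did not pass. For this difference of zone effects 0% of all genes and none of the ligand genes passed in edgeR, 821 genes (4.37%) had an unadjusted p under 0.05, DESeq2 called 163 and limma-voom 25. Tnfsf14 passed in 7 of 21 alternatives, among them DESeq2 (adjusted p = 1.45e-05), limma-voom (0.0233), leaving out S106 (0.00931) and leaving out S104 to S107 (0.0194), and over all 21 its adjusted p was between 1.45e-05 and 0.32. The term for sex and component side together also let it pass (0.0162). That term sets apart the 3 sets of consecutive libraries S104 to S107, S108 to S111 and S112 to S115. No other ligand gene passed for this difference under any of them. All 8 neutrophil markers were positive for it too (median 1.18, against 0.042 over all genes), none of them past the threshold, and their part was not tested.

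**Figure D3:**
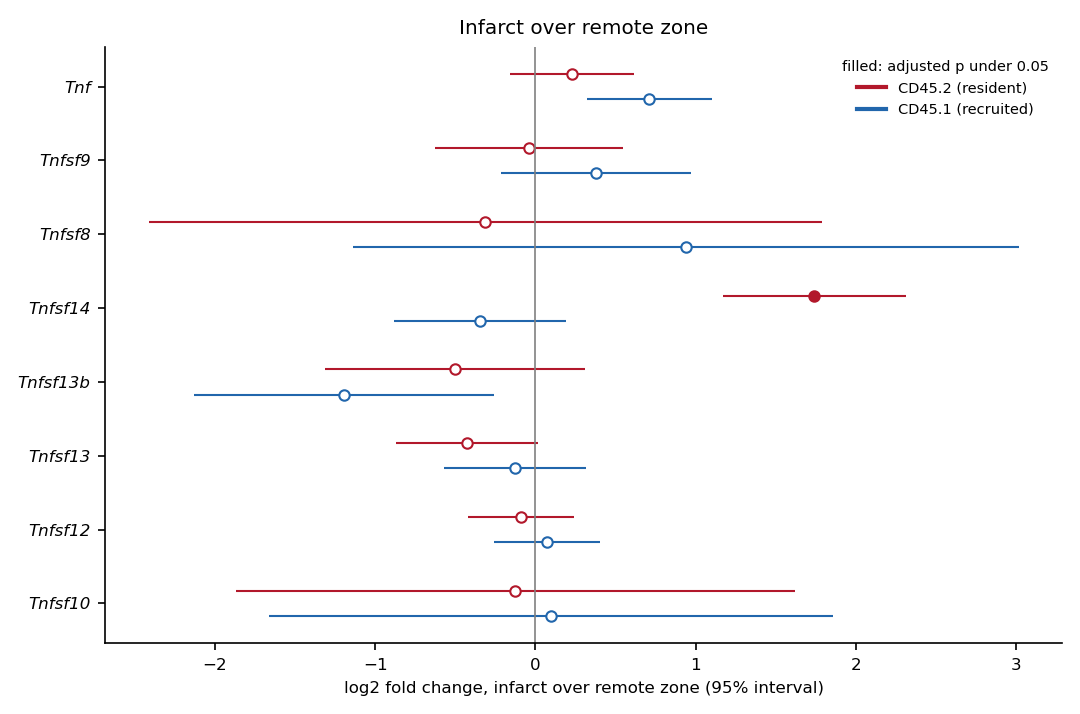
Log2 fold changes of the IZ over the RZ with 95% intervals for 8 of the ligand genes, within CD45.2 and within CD45.1 macrophages, from edgeR. Tnfsf14 in CD45.2 macrophages, at 1.74, is the only filled point, and in CD45.1 macrophages it lies at -0.35.

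Tnf in CD45.1 macrophages averaged 33.0 ± 4.24 CPM in the IZ and 20.2 ± 5.42 CPM in the RZ (SD, n = 3 each), and the zones did not overlap. The log2 fold change of 0.71 (SE 0.179) missed the threshold in edgeR (adjusted p = 0.32). In CD45.2 macrophages it averaged 75.8 ± 3.20 CPM in the IZ and 64.6 ± 9.36 CPM in the RZ (SD, n = 3 each), again with no overlap and with a log2 fold change of 0.23 (95% interval -0.16 to 0.62, adjusted p = 0.568, edgeR). Tnfsf13b leaned the other way, with 19.5 ± 6.96 CPM in the IZ and 27.7 ± 3.20 CPM in the RZ of CD45.2 macrophages and 0.654 ± 0.0788 CPM in the IZ and 1.51 ± 1.02 CPM in the RZ of recruited macrophages (SD, n = 3 each). Its libraries did not overlap between zones in either population, but neither difference passed (log2 fold change -0.50, adjusted p = 0.55, in CD45.2 and -1.20, adjusted p = 0.512, in CD45.1 macrophages; edgeR). With n = 3 each, lack of overlap can arise by chance and does not show a difference between zones. The share of all genes without overlap was not counted.

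Levels of different genes were compared per kb of exon. Tnfsf9 was first in resident macrophages, with 96.0 ± 15.6 CPM per kb in the IZ and 98.6 ± 43.7 in the RZ (SD, n = 3 each), and it did not overlap with Tnf, the second, with 46.2 ± 1.96 in the IZ and 39.4 ± 5.71 in the RZ. Tnfsf12 and Tnfsf13 came next, at 23.3 to 35.3 CPM per kb on average, and overlapped with each other in both zones. In every group their levels include reads of exons shared with Tnfsfm13, which cannot be split among the genes, so their places are uncertain. In recruited macrophages the first 3 places were held by Tnfsf9, Tnfsf13 and Tnfsf12, which ranged from 27.0 to 40.3 CPM per kb on average, and neighbours among them overlapped. Tnf and Tnfsf14 followed, at 20.1 and 10.5 CPM per kb in the IZ, where they did not overlap, and at 12.3 and 13.3 in the RZ, where they did. Tnfsf13b stood at 2.84 CPM per kb in the IZ and 4.03 in the RZ of resident macrophages. In recruited macrophages it stood at 0.0952 in the IZ and 0.22 in the RZ. Its mean there was below that of Tnfsf10, and the libraries of both genes overlapped in the RZ but not in the IZ. Tnfsf8, Tnfsf10, Tnfsf18 and Tnfsf4 averaged under 1 CPM per kb in every group.

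**Figure D4:**
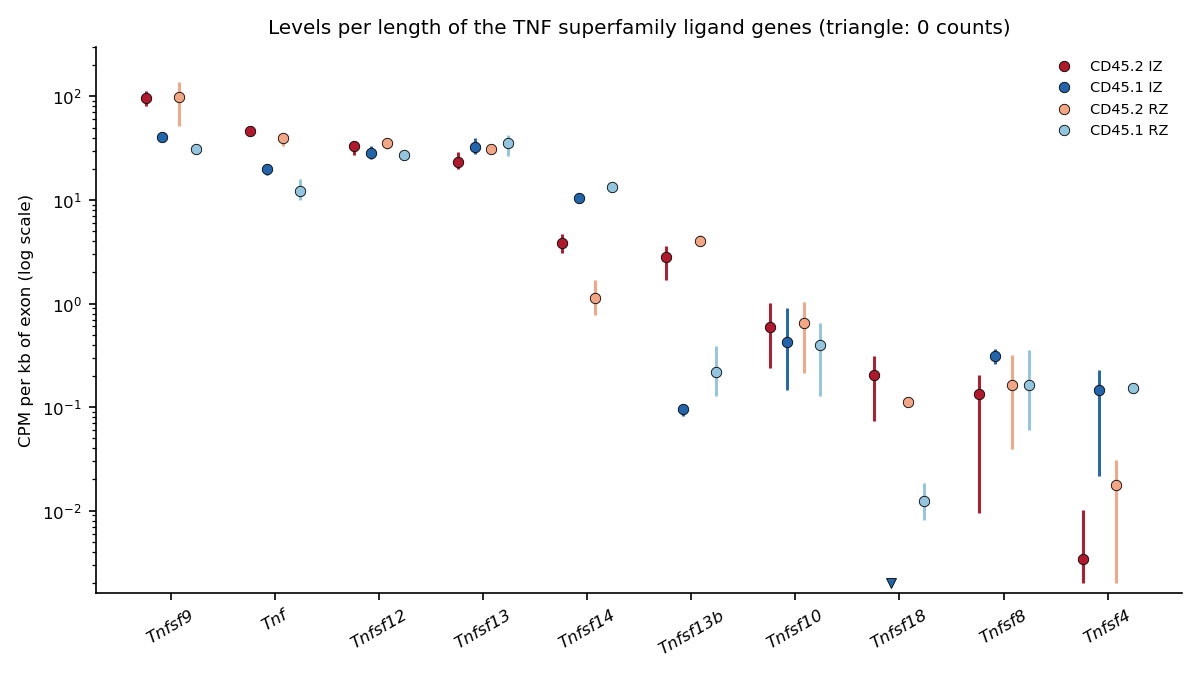
Mean CPM per kb of exon of the 10 ligand genes on a log axis, by group, with vertical lines from the lowest to the highest of 3 libraries. Lines that end at the lower edge reach 0, and the triangle marks Tnfsf18 with 0 counts in CD45.1 IZ. Tnfsf14 and Tnfsf13b lie close together in CD45.2 IZ, at 3.80 and 2.84, and far apart in CD45.1 IZ, at 10.5 and 0.0952.

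The other ligands of the family were rare in these macrophages. Of the 8 listed (Lta, Ltb, Fasl, Cd40lg, Cd70, Tnfsf11, Tnfsf15 and Eda), 3 passed the filter on low counts and none was called between populations or zones. Lta and Ltb, which encode the lymphotoxins, lie 1.2 and 3.1 kb from Tnf on chromosome 17, and Lta reached at most 0.151 CPM and Ltb at most 3.07 CPM. Cd70, which lies between Tnfsf9 and Tnfsf14 on the same chromosome, had no count in any library.

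Of the 28 receptors of the family, 24 were tested. In the IZ 4 were higher in CD45.2 macrophages (Tnfrsf17, Tnfrsf25, Cd40 and Tnfrsf13c) and 4 lower (Tnfrsf26, Tnfrsf21, Relt and Tnfrsf11a), and in the RZ 3 were higher (Tnfrsf17, Tnfrsf25 and Cd40) and 5 lower (Tnfrsf26, Relt, Tnfrsf21, Tnfrsf8 and Tnfrsf13b). Over all genes 12% were higher and 7.56% lower in the IZ, and 16.2% were higher and 15.8% lower in the RZ. The median log2 fold change of the receptors was -0.16 in the IZ and -0.11 in the RZ. None was called between the zones in either population.

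Both TNF receptors were abundant, and neither was called. Tnfrsf1a, which carries the death domain, averaged 191 ± 15.9 CPM in resident against 174 ± 16.3 CPM in recruited macrophages of the IZ, and 204 ± 16.6 CPM in resident against 187 ± 6.11 CPM in recruited macrophages of the RZ (SD, n = 3 each). Tnfrsf1b, which signals through TRAF2, averaged 439 ± 48.4 CPM in resident against 498 ± 77.9 CPM in recruited macrophages of the IZ, and 473 ± 11.1 CPM in resident against 508 ± 53.2 CPM in recruited macrophages of the RZ (SD, n = 3 each). Neither passed between the populations (log2 fold changes 0.14 in the IZ and 0.13 in the RZ for Tnfrsf1a, -0.18 in the IZ and -0.11 in the RZ for Tnfrsf1b, adjusted p of 0.388 or above, edgeR), and their libraries overlapped.

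The receptors of BAFF and APRIL differed from each other. Tnfrsf17 (BCMA), known from plasma cells, was at 0.471, 2.60 and 2.07 CPM in resident against 0, 0.047 and 0.0578 CPM in recruited macrophages of the IZ, and at 2.25, 4.11 and 4.07 CPM in resident against 0.0575, 0 and 0.042 CPM in recruited macrophages of the RZ. Its log2 fold change was 5.52 in the IZ (SE 0.921, adjusted p = 0.00161) and 6.66 in the RZ (SE 0.939, adjusted p = 0.000311; edgeR). Within the resident RZ libraries it was lowest in S106. Tnfrsf13c (BAFF receptor), which naive B cells need, had 52 counts in resident against 3 in recruited macrophages of the IZ (adjusted p = 0.04995, edgeR) and 45 in resident against 6 in recruited macrophages of the RZ (adjusted p = 0.0805, edgeR). Tnfrsf13b (TACI) was the most abundant of them and slightly lower in resident macrophages, with 59.2 ± 5.97 CPM in resident against 71.5 ± 3.81 CPM in recruited macrophages of the IZ and 70.7 ± 5.83 CPM in resident against 88.0 ± 4.87 CPM in recruited macrophages of the RZ (SD, n = 3 each). It passed in the RZ (log2 fold change -0.31, adjusted p = 0.0375) and not in the IZ (-0.27, adjusted p = 0.0885; edgeR).

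The receptors of the other called ligands did not pass, or were rare. Ltbr, the LIGHT and lymphotoxin receptor, averaged 69.3 ± 8.94 CPM in resident against 76.4 ± 4.98 CPM in recruited macrophages of the IZ, and 64.3 ± 10.6 CPM in resident against 78.2 ± 3.12 CPM in recruited macrophages of the RZ (SD, n = 3 each; adjusted p of 0.477 in the IZ and 0.118 in the RZ, edgeR). Tnfrsf14 ranged from 0.904 to 4.05 CPM over the 12 libraries and did not pass either (adjusted p of 0.207 in the IZ and 0.195 in the RZ, edgeR). Tnfrsf9, Tnfrsf4 and Tnfrsf18, the receptors of Tnfsf9, Tnfsf4 and Tnfsf18, stayed at or under 1.99, 0.414 and 1.42 CPM and were not called. Tnfrsf8, the receptor of Tnfsf8, was called lower in the RZ, with 0.132, 0.247 and 0.485 CPM in resident against 1.19, 1.45 and 1.58 CPM in recruited macrophages (log2 fold change -2.27, SE 0.541, adjusted p = 0.00801, edgeR). Tnfrsf10b, the TRAIL receptor, reached at most 1.13 CPM, and Tnfrsf12a, the TWEAK receptor, averaged 8.16 ± 1.08 CPM in resident against 10.9 ± 0.573 CPM in recruited macrophages of the IZ (SD, n = 3 each), and neither was called.

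Receptors without a partner among the 10 ligands were called as well. Tnfrsf25 (DR3), a receptor of T cells for Tnfsf15, had 103 counts in resident against 0 in recruited macrophages of the IZ (adjusted p = 0.00444, edgeR), and 228 in resident against 10 in recruited macrophages of the RZ (adjusted p = 0.00693, edgeR). Cd40, the co-stimulatory receptor of antigen-presenting cells, was 0.78 higher on the log2 scale in the IZ (adjusted p = 0.0366) and 0.76 higher in the RZ (adjusted p = 0.0279; edgeR). Tnfrsf26 was lower in both zones, with 3.92 ± 0.572 CPM in resident against 9.31 ± 1.90 CPM in recruited macrophages of the IZ and 3.36 ± 1.12 CPM in resident against 10.7 ± 2.54 CPM in recruited macrophages of the RZ (SD, n = 3 each). Tnfrsf21 (DR6) fell by 0.56 on the log2 scale in the IZ (adjusted p = 0.018) and by 0.66 in the RZ (adjusted p = 0.00465; edgeR), and Relt by 0.59 in the IZ (adjusted p = 0.0205) and by 0.74 in the RZ (adjusted p = 0.0036; edgeR).

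**Figure D5:**
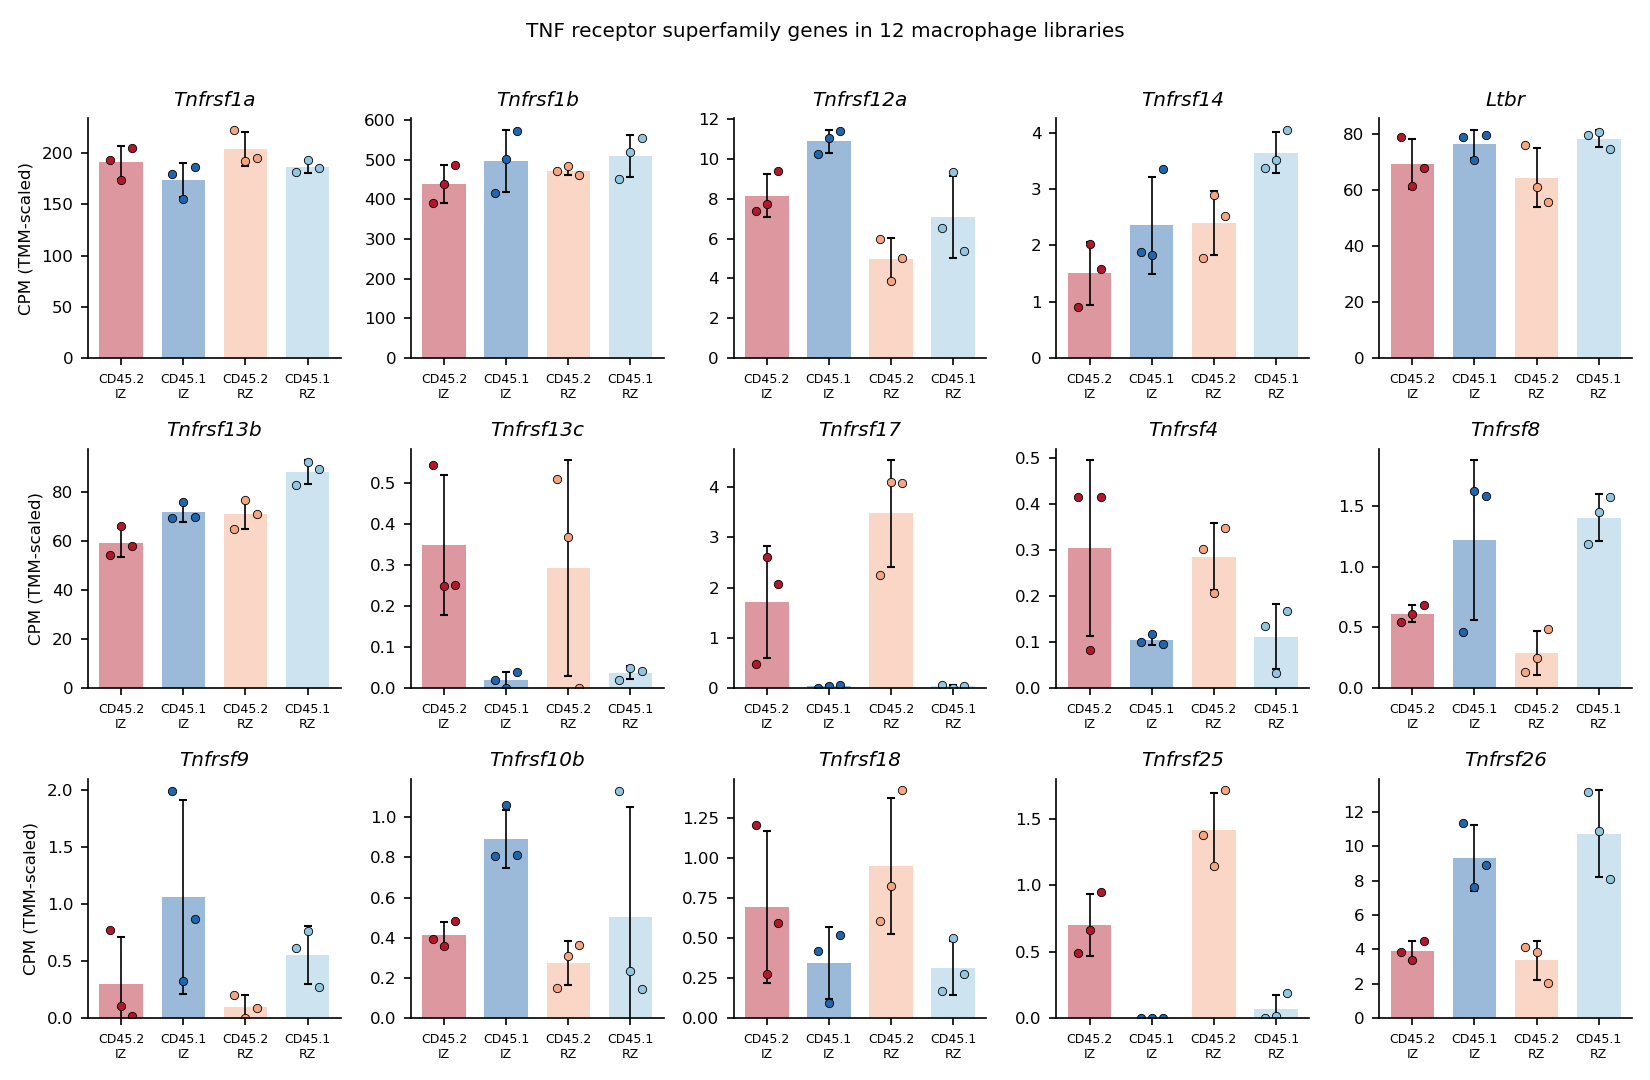
Levels of 15 genes of the TNF receptor superfamily in CPM (TMM-scaled) on an axis of its own for each gene, by group. Points are the 3 libraries of a group, bars are their means and whiskers 1 SD. Tnfrsf1a and Tnfrsf1b are level over the 4 groups, whereas Tnfrsf17 and Tnfrsf25 are near 0 in both CD45.1 groups.

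Of 15 tested genes that process TNF-type ligands or their mRNA, 1 was higher and 4 were lower in the IZ, where 12% of all genes were higher and 7.56% lower. In the RZ 2 were higher and 5 lower, where 16.2% of all genes were higher and 15.8% lower. Adam17, the TNF sheddase, averaged 214 ± 9.53 CPM in resident against 286 ± 7.89 CPM in recruited macrophages of the IZ (log2 fold change -0.42, adjusted p = 0.0372) and 187 ± 35.3 CPM in resident against 285 ± 13.8 CPM in recruited macrophages of the RZ (-0.60, adjusted p = 0.00376; SD, n = 3 each; edgeR). Its relative Adam10 fell by 0.69 in the IZ (adjusted p = 0.00327) and by 0.79 in the RZ (adjusted p = 0.000811; log2 scale, edgeR). Rhbdf1, which encodes the partner iRhom1 of ADAM17, went the other way, with 41.3, 52.8 and 63.1 CPM in resident against 2.45, 5.08 and 5.31 CPM in recruited macrophages of the IZ and 75.0, 94.1 and 112.9 CPM in resident against 2.90, 5.67 and 7.58 CPM in recruited macrophages of the RZ (log2 fold changes 3.61, adjusted p = 6.46e-05, and 4.13, adjusted p = 1.51e-05; edgeR). Rhbdf2, which encodes iRhom2, was lower in the RZ (log2 fold change -0.71, adjusted p = 0.0138, edgeR).

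Furin, the protease that cuts BAFF, APRIL and TWEAK, averaged 278 ± 48.1 CPM in resident against 510 ± 67.4 CPM in recruited macrophages of the IZ, and 128 ± 20.4 CPM in resident against 382 ± 40.9 CPM in recruited macrophages of the RZ (SD, n = 3 each). It was lower in resident macrophages of both zones (log2 fold change -0.87, adjusted p = 0.00365, in the IZ and -1.57, adjusted p = 4.22e-05, in the RZ; edgeR). In CD45.2 macrophages it was the only gene of this list called between the zones, higher in the IZ than in the RZ (log2 fold change 1.12, SE 0.166, adjusted p = 0.00609, edgeR). Elavl1, whose protein HuR binds AU-rich mRNA, fell by 0.56 in the IZ (adjusted p = 0.0139) and by 0.55 in the RZ (adjusted p = 0.00899; log2 scale, edgeR). Zfp36, whose protein tristetraprolin promotes the decay of Tnf mRNA, was higher in the RZ, with 1294, 4553 and 3341 CPM in resident against 1214, 1213 and 1395 CPM in recruited macrophages (adjusted p = 0.0237, edgeR), and the groups overlapped through S106, which also held the lowest Tnf and Tnfsf9 levels of the resident RZ libraries.

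Of 29 adaptor and signalling genes tested, 1 was higher and 5 were lower in resident macrophages of the IZ, against 12% and 7.56% of all genes, and 2 were higher and 9 lower in the RZ, against 16.2% and 15.8% of all genes. Traf1, an NF-kB target and adaptor of several T cell co-stimulatory receptors, averaged 42.1 ± 8.25 CPM in resident against 20.7 ± 2.61 CPM in recruited macrophages of the IZ, and 38.5 ± 8.78 CPM in resident against 18.9 ± 1.51 CPM in recruited macrophages of the RZ (SD, n = 3 each; log2 fold change 1.02, adjusted p = 0.00262, in the IZ and 1.03, adjusted p = 0.0015, in the RZ; edgeR). The lower genes in both zones were Traf6, an adaptor of CD40 and RANK, Chuk, which encodes IKK alpha, Ripk3, the kinase of necroptosis, Tradd, the adaptor of Tnfrsf1a, and Casp8, the caspase of death receptors. Ripk3 had the largest difference among them, with 76.5 ± 8.67 CPM in resident against 169 ± 14.8 CPM in recruited macrophages of the IZ and 37.8 ± 19.1 CPM in resident against 137 ± 27.5 CPM in recruited macrophages of the RZ (SD, n = 3 each; adjusted p = 0.0139 in the IZ and 0.000516 in the RZ, edgeR). Traf6 fell by 0.63 in the IZ and by 0.75 in the RZ, Chuk by 0.56 in the RZ and Casp8 by 0.33 in the IZ and 0.31 in the RZ on the log2 scale. None of the 29 genes was called between the zones.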

How the data were processed

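RNA of about 1000 sorted macrophages per sample was amplified by SMART-Seq v4, which keeps neither strand nor molecular tags, and sequenced. The authors deposited 1 table of raw counts per gene. By the submitters' processing notes and the study's methods, HISAT2 2.2.1 aligned the reads (GRCm38.p6) and featureCounts of Subread 2.0.1 counted pairs, giving a pair to each gene it touched. Hence 11599 genes with exons in common are not counted independently. GENCODE M21 named 55227 of 55487 genes, and 0 columns of samples were left unmapped.

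Tests were run in edgeR 4.0.16 (R 4.3.3). The filter filterByExpr (minimum count 10, minimum total 15) kept 18773 genes. Libraries were scaled by TMM, 1 mean per group was fitted over 12 libraries by the quasi-likelihood method, and Benjamini-Hochberg adjustment covered all genes within each of 5 comparisons. CPM are TMM-scaled, and per kb refers to summed exon length. Standard errors were derived from the F statistic. A group at 0 counts was set at a floor of 3 counts. The fits were tested on simulated data.

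The members and the gene lists were chosen with earlier results of these data known. Named genes were all 10 ligands, their known receptors, the called genes of each pathway list (up to 6 by adjusted p in each comparison), and the 3 genes with a mean of at least 5 CPM whose log2 CPM correlated best with each ligand over 12 libraries. Other called receptors, Gm11110, Tnfsfm13 and the markers Ms4a1, Pax5 and Ly6g were named after their values were seen or because they bear on a ligand. Some genes that the rule names are not reported here. Alternatives were DESeq2 1.42.0 (the study's tool), its size factors, limma-voom (limma 3.58.1), other filters, only the 6 libraries compared, and leaving out each library in turn. Leaving out S104 to S107, and adding the sex of a library, its side of the second principal component, or both as covariates, were chosen after seeing the data.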

Additional observations from a re-analysis of the deposited data

How the results depend on the processing

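Tnf, Tnfsf9, Tnfsf13b and Tnfsf14 kept their direction and their calls between the populations in both zones under all 22 alternatives, and Tnfsf18 did in the IZ under all 20 that could test it. The count of lower ligand genes was 1 in the RZ with limma-voom, with no filter, with the stricter filter and with sex as a covariate, and 1 in the IZ with the stricter filter and with only the 6 libraries compared, in each case without Tnfsf4 or with it untested. It was 3 in the IZ with component side and with both covariates, where Tnfsf13 was added. Over the fits that left out 1 library, the higher and lower ligand genes numbered 3 to 5 and 1 to 2 in the RZ, and 4 to 4 and 1 to 2 in the IZ. In those fits all genes called numbered 4062 to 7228 in the RZ and 2173 to 4356 in the IZ, 124 to 1099 between zones in CD45.2, 0 to 2 between zones in CD45.1 macrophages, and 0 to 60 for the difference of zone effects, where 0 to 1 ligand genes passed. All genes called in the IZ numbered 3666, but 6675 with limma-voom and 5741 with sex and component side as covariates. Between zones in CD45.2 macrophages 330 genes were called (83.3% higher), but 1154 with DESeq2 (62.3% higher), 674 with limma-voom (62.0%), 26 with only the 6 libraries (92.3%), 1121 with component side (68.3%) and 1457 with both covariates (65.2%), and Tnfsf14 was lost (0 ligand genes) with only the 6 libraries. Between zones in CD45.1 macrophages 0 genes were called, but 190 with DESeq2 (1 ligand gene, Tnf), 14 with no filter, 5 without S104 to S107, 12 with component side and 59 with both covariates. For the difference of zone effects 0 genes were called, but 163 with DESeq2, 25 with limma-voom, 30 with no filter, 14 with the stricter filter, 35 without S104 to S107, 11 with sex, 48 with component side and 94 with both, and 1 ligand gene, Tnfsf14, was among them except with the stricter filter and with sex. Directions turned only where the result had not passed: between zones in CD45.1 macrophages, Tnfsf4 to 0.44 without S104 to S107 and Tnfsf10 to -0.013 with both covariates; in CD45.2 macrophages, Tnfsf8 to 0.12 with both covariates and Tnfsf9 to 0.0032 with component side and 0.0073 with both. Leaving out 1 library turned further ones, with log2 ranges of -0.90 to 1.27 for Tnfsf8 in the RZ, -0.14 to 1.59 for Tnfsf10 in the IZ, -0.55 to 0.43 for Tnfsf4, -1.04 to 0.63 for Tnfsf10, -0.031 to 0.16 for Tnfsf12 and -0.30 to 0.030 for Tnfsf13 between zones in CD45.1, -0.78 to 0.60 for Tnfsf8, -0.34 to 0.28 for Tnfsf9, -0.74 to 0.37 for Tnfsf10 and -0.19 to 0.032 for Tnfsf12 between zones in CD45.2, and -0.83 to 0.89 for Tnfsf10 and -0.0092 to 0.96 for Tnfsf13b in the difference of zone effects. The cause was not tested. The labels give no animal numbers, so libraries could not be paired by animal. They could be blocked by sets of consecutive library numbers, and no label says whether a set is an animal, a pool or a batch. The fit with both covariates equals a term for the 3 sets S104 to S107, S108 to S111 and S112 to S115. Each set held 1 library per group. This fit added the calls of Tnfsf13 in the IZ (adjusted p = 0.0164, edgeR) and of Tnfsf14 in the difference of zone effects (0.0162). Depth limits Tnfsf4 and Tnfsf18, which had at most 57 counts in a group.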
